A study of Mus musculus with 6 samples.

Results

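Ctsc, Tspan3, Sft2d2, Trim30a, Slco1a6, Cftr, Slitrk2, Lmnb1, Wdr72 and Asxl3 are 10 mouse genes that took a larger share of the counts in SCRB-seq wells of formalin-fixed, paraffin-embedded (FFPE) nuclei than in wells of frozen nuclei. They were chosen by name for that difference, from 19006 mouse genes in the SCRB-seq table, and all 10 were listed in each table analysed. The comparison of FFPE with frozen SCRB-seq wells is therefore a description here. The tests concern contrasts that did not choose them: the same nuclei types in another chemistry, the paraffin removal methods, the number of nuclei per well and the well barcode.

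Nuclei came from 50 µm scrolls of tissue that the labels call cortex, cut from C57BL/6J mice aged 8 to 12 weeks, and make up 6 GEO samples. Paraffin was removed with mineral oil and heat (heated mineral oil), xylene and heat (heated xylene) or xylene at room temperature. The SCRB-seq table is 1 GEO sample with 64 wells, 16 for each method and 16 of frozen nuclei, and in each 16 there were 8 wells of 10 nuclei and 8 of 100. The SMART-Seq2 bulk table is 1 GEO sample with 12 wells, 1 for each of 10, 50 and 100 nuclei in the 3 methods and in frozen nuclei. The frozen wells carry only that word in the authors' annotation. No genotype beyond the strain, no treatment of the mice and no animal per well is given, so p-values measure only the spread between wells, which may be technical. Single FFPE nuclei were profiled in plates and droplets, and a table of the whole series adds frozen plate nuclei.

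SCRB-seq counts the ends of transcripts. Each well has its own barcode on the primer that binds the poly(A) tail, and wells are pooled before the cDNA is amplified. SMART-Seq2 instead amplifies each well separately and reads along the whole transcript. Formalin is known to crosslink RNA to protein, and RNA of FFPE tissue is known to be fragmented. The 8 well barcodes of the SCRB-seq table are shown because several of the genes differed between them. The same 8 served every method and nuclei number, so each barcode marked 6 FFPE wells and 2 frozen wells.
well 1: atactt
well 2: cttctg
well 3: ttcctc
well 4: agaatt
well 5: cgactt
well 6: cggagg
well 7: gcgtgg
well 8: cgtcgc

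The genes have no common function. Ctsc encodes cathepsin C, a lysosomal protease that activates serine proteases of immune cells. Sft2d2 encodes a membrane protein of vesicle transport, and Wdr72 a WD-repeat protein of vesicle trafficking that enamel formation requires. Tspan3 encodes a tetraspanin of the cell membrane, Slco1a6 an organic anion transporter and Cftr the epithelial chloride channel. Slitrk2 encodes a neuronal adhesion protein that organizes synapses. Trim30a encodes an interferon-induced protein that restrains NF-kB signalling. Lmnb1 encodes lamin B1 of the nuclear lamina, and Asxl3 a partner of the histone deubiquitinase Bap1. On GRCm38 with the GENCODE M21 annotation all are protein-coding genes, spread over several chromosomes. Ctsc lies at chr7:88278085-88310888 on the plus strand and Trim30a at chr7:104409025-104465193 on the minus strand. Tspan3 lies at chr9:56131725-56165477 (minus) and Wdr72 at chr9:74110356-74283308 (plus). Cftr lies at chr6:18170687-18322768 (plus) and Slco1a6 at chr6:142085761-142208521 (minus). Sft2d2 lies at chr1:165174337-165194438 (minus) and Slitrk2 at chrX:66649318-66661393 (plus). Lmnb1 and Asxl3 are both on chromosome 18.

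In FFPE wells the 10 genes together took from 1.06% to 39.1% of the mouse counts, with a median of 7.63% (mean 10.6% ± 8.93, SD, n = 48 wells). In frozen wells they took from 0.244% to 0.741% (mean 0.433% ± 0.134, n = 16). Every FFPE well was above every frozen well. FFPE wells held between 7512 and 147257 mouse counts and frozen wells between 17611 and 167144. The shallowest group of FFPE wells, those of 10 nuclei in heated mineral oil (7512 to 20593 counts), had the highest mean share (24.7%). Its wells ran from 11.5% to 39.1% and overlapped deeper ones. Room-temperature xylene wells of 10 nuclei (23015 to 124694 counts) reached 23.5%. The part of depth was not tested. Levels below are in CPM, the count of a gene scaled to the same total of mouse counts in each well, and are not divided by gene length.

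Ctsc, Tspan3, Sft2d2 and Wdr72 stood furthest from frozen wells. Ctsc ranged from 1036 to 162800 CPM in FFPE wells with a median of 24824, and from 16.3 to 1420 CPM in frozen wells with a median of 172. Tspan3 ranged from 569 to 138610 CPM (median 21725) in FFPE wells and from 42.4 to 1079 CPM (median 169) in frozen wells. For both, 47 of 48 FFPE wells exceeded the highest frozen well. Sft2d2 ranged from 569 to 40449 CPM (median 6007) against 17.9 to 487 CPM (median 79.9) in frozen wells. Wdr72 ranged from 164 to 8878 CPM (median 1484) against 0 to 161 CPM (median 26.6). For these last 2 genes the FFPE and frozen wells did not overlap. Means were 132-fold (Ctsc), 119-fold (Tspan3), 68.8-fold (Sft2d2) and 55.7-fold (Wdr72) higher in FFPE wells. By summed counts Ctsc was the first and Tspan3 the second of 19006 mouse genes in FFPE wells, while in frozen wells they were 1082nd and 918th.

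The other 6 genes stood less far above frozen wells. Trim30a ranged from 2983 to 17838 CPM (median 7214) in FFPE wells and from 874 to 1947 CPM (median 1202) in frozen wells. Cftr ranged from 1752 to 9232 CPM (median 3736) against 558 to 974 CPM (median 743). Lmnb1 ranged from 966 to 6434 CPM (median 2674) against 227 to 651 CPM (median 397). These 3 genes had no FFPE well at or below a frozen well. Slco1a6 ranged from 818 to 18162 CPM (median 3590) against 56.8 to 1029 CPM (median 216), and 46 of 48 FFPE wells exceeded the highest frozen well. Slitrk2 ranged from 329 to 9606 CPM (median 2160) against 0 to 506 CPM (median 210). Asxl3 ranged from 1032 to 6031 CPM (median 2059) against 307 to 1136 CPM (median 537). For Slitrk2 and Asxl3 it was 45 of 48 wells. Means were 14.3-fold (Slco1a6), 11.7-fold (Slitrk2), 6.87-fold (Lmnb1), 6.10-fold (Trim30a), 5.32-fold (Cftr) and 3.91-fold (Asxl3) higher in FFPE wells. In frozen wells Trim30a was already 61st and Cftr 126th of 19006 genes by counts, against 5817th for Wdr72.

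**Figure D1:**
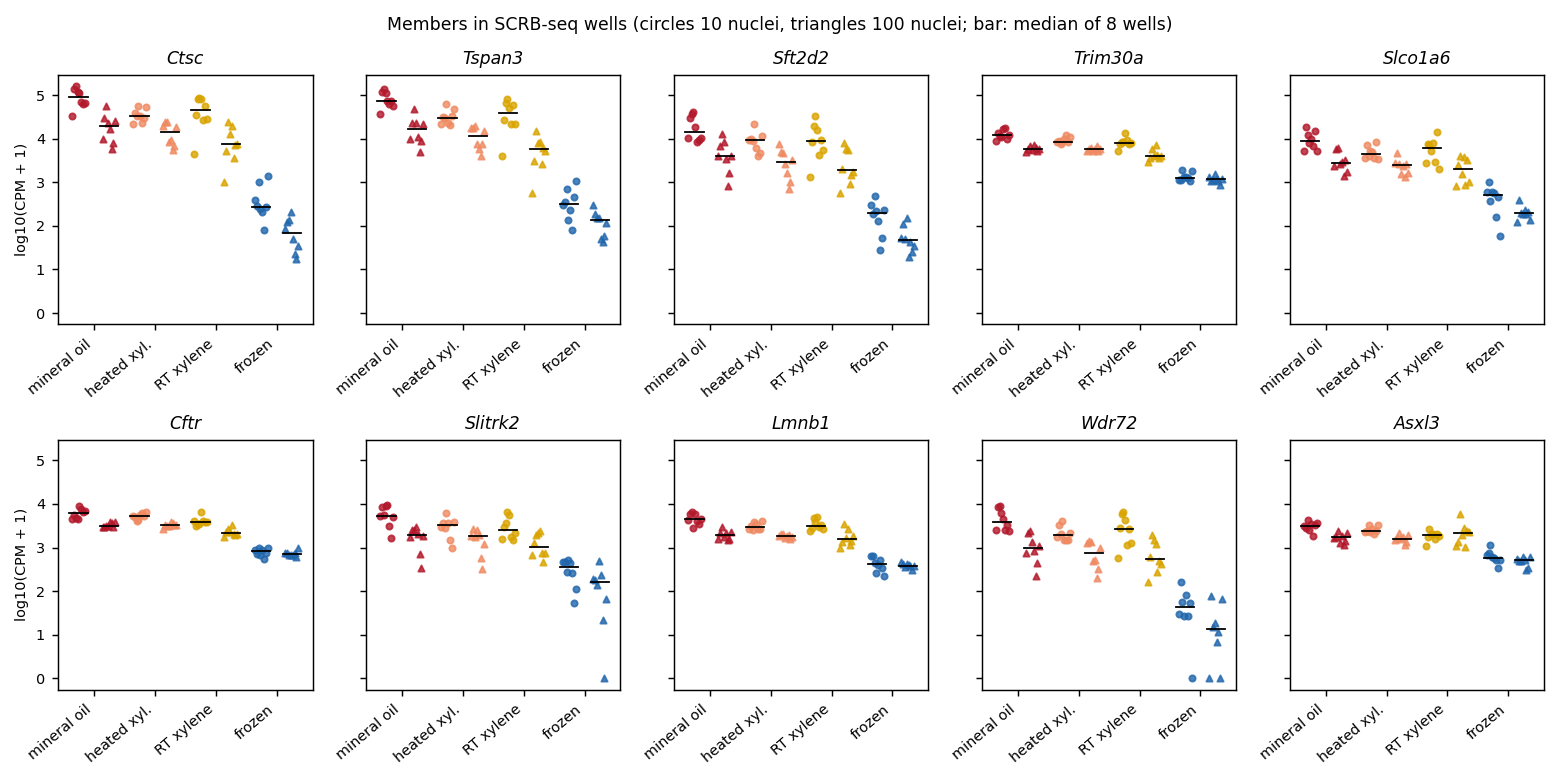
CPM of each gene in every SCRB-seq well, as log10(CPM + 1), by paraffin removal method and for frozen nuclei, with circles for wells of 10 nuclei, triangles for wells of 100 and a bar at the median of 8 wells. Ctsc and Tspan3 span the widest range among FFPE wells, and for 5 of the 10 genes no FFPE well reaches down to a frozen well.

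FFPE and frozen wells of 5 of the 10 genes did not overlap, where 1.29% of the 1478 genes fitted had every FFPE well above every frozen well. In edgeR's quasi-likelihood fit of this contrast 58.0% of those genes were called and 30.2% were higher in FFPE wells. All 10 genes lay in that set, as their choice fixed. With size factors from DESeq2 in place of TMM, the calls over all genes moved from 447 higher and 410 lower to 309 higher and 674 lower, and the median of all genes shifted to -0.58 (log2). The fitted log2 fold changes of the 10 genes ran from 1.98 (Asxl3) to 7.25 (Ctsc, SE 0.63) with TMM. Ranked by the ratio of pooled CPM in FFPE to frozen wells, Ctsc was 4th, Tspan3 7th, Sft2d2 10th and Wdr72 13th of 1478, and the other 6 lay between 39th and 196th. Directly beside them stood Gm21317 at place 3, Cnpy1 at 5, Cbln1 at 6 and Clec12a at 8, each with far fewer counts: 833 CPM pooled over FFPE wells for Gm21317 and 308 CPM for Clec12a, against 26174 CPM for Ctsc. Many genes that are not among the 10 lay between these places.

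The material differed between FFPE and frozen wells in other ways that moved with these genes. Of 6 cerebellar granule neuron markers, 6 were higher in FFPE wells, with a summed level of 284 to 6115 CPM against 0 to 101 CPM in frozen wells, where Cbln3 and Gabra6 were at 0. Of 5 excitatory neuron markers, 4 were tested and all 4 were lower in FFPE wells (summed 95.9 to 1313 CPM against 1487 to 2698 CPM), although the labels call all samples cortex. The 10 of 11 microglia markers listed summed to 0 to 1389 CPM (median 450) in FFPE wells and 107 to 558 CPM (median 174) in frozen wells, where Csf1r and C1qb were at 0. Choroid plexus markers, an epithelium that could hold Cftr, summed to at most 206 CPM in FFPE wells and at most 114 CPM in frozen wells. Human genes took 6.17% to 31.8% of all counts in FFPE wells and 1.61% to 3.70% in frozen wells, and the 10 genes still averaged 8.58% of mouse and human counts together in FFPE wells. The part of these differences in the levels of the 10 genes was not tested. In bulk wells fewer cells of a type and less RNA per cell cannot be told apart.

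The number of nuclei was the second axis along which the genes moved. With 10 nuclei per well they took 24.7% ± 9.71 of mouse counts in heated mineral oil, 11.0% ± 3.42 in heated xylene and, in xylene without heat, 13.3% ± 7.35 (mean ± SD, n = 8 wells each). With 100 nuclei they took 6.52% ± 3.73, 4.72% ± 1.77 and 3.48% ± 2.11. Frozen wells went the same way at a far lower level, from 0.521% ± 0.132 with 10 nuclei to 0.346% ± 0.0614 with 100.

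All 10 genes were lower in FFPE wells of 100 than of 10 nuclei in edgeR's quasi-likelihood test with the method as a term, Benjamini-Hochberg adjusted over all genes fitted. Lower calls made up 11.6% of the 1979 genes and calls in any direction 33.5%. Tspan3 had pool means of 83816, 33583 and 41117 CPM with 10 nuclei and 19039, 11891 and 6128 CPM with 100, the methods being heated mineral oil, heated xylene and room-temperature xylene. It fell by 2.24 on the log2 scale (SE 0.29, adjusted p = 4.82e-08), the largest fall of the 10. Ctsc had pool means of 95357, 36114 and 49537 CPM with 10 nuclei and 21686, 14530 and 10183 CPM with 100, in the same order. It fell by 2.03 (SE 0.29, adjusted p = 3.84e-07).

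The other members fell less. Wdr72 fell by 1.95 and Sft2d2 by 1.92, Slco1a6 by 1.49 and Slitrk2 by 1.45 on the log2 scale. Lmnb1 fell by 1.09, Trim30a by 1.00 and Cftr by 0.89. For Cftr the pool means went from 6237 to 3338 CPM in heated mineral oil and from 5268 to 3272 CPM in heated xylene. The adjusted p-values of these 7 genes ran from 2.63e-08 (Trim30a) to 1.72e-05 (Slitrk2) in the same edgeR test. The 4 members furthest above frozen wells (Ctsc, Tspan3, Sft2d2 and Wdr72) were also the 4 with the largest falls. Both measures include the FFPE wells with the lower number of nuclei, so this match is not a separate result.

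Asxl3 differed from the rest. Its pool means were 3124 CPM with 10 and 1710 CPM with 100 nuclei in heated mineral oil, 2594 and 1639 CPM in heated xylene, and 1874 and 2363 CPM in xylene at room temperature. It fell by 0.49 over all methods (SE 0.17, edgeR adjusted p = 0.0240). In room-temperature xylene alone its log2 difference was -0.04 (edgeR adjusted p = 0.959). That mean rested on 1 well of 100 nuclei at 6031 CPM, whose nearest neighbour was at 2779 CPM. Without that well the difference over all methods was -0.52 (edgeR adjusted p = 0.00632), and within room-temperature xylene -0.32 (0.481). The call for Asxl3 over all methods was lost with DESeq2 size factors in edgeR (-0.08, adjusted p = 0.660), in the DESeq2 Wald test (adjusted p = 0.646), without the filter on low counts (edgeR, 0.405) and in the xylene wells alone (edgeR, 0.261). The pool mean was lower with 100 nuclei in each of the 3 methods for the other 9 members, against 15.5% of the genes fitted.

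The median of all genes in this contrast was 0.31 with TMM and 0.75 with DESeq2 size factors (log2), and calls over all genes moved from 433 higher and 230 lower to 856 higher and 116 lower. Apart from Asxl3, the members were called lower under each alternative, with 1 exception, Slitrk2 in heated xylene alone (-1.12, edgeR adjusted p = 0.0640). The size of the fall varied over the 12 alternatives, single methods included. Tspan3 ran from -1.61 to -3.40, Ctsc from -1.42 to -2.94 and Cftr from -0.46 to -1.22. Within single methods 10 of 10 members were called lower in heated mineral oil, 8 of 10 in heated xylene (all but Slitrk2 and Asxl3, the latter at -0.76, edgeR adjusted p = 0.0503) and 9 of 10 in room-temperature xylene (all but Asxl3). Over all genes 7.83%, 7.98% and 7.58% were called lower in these 3 fits, which were added after values had been seen. Whether the fall differed between methods was tested directly as an interaction. In edgeR 0 of the 10 members and 45.8% of all genes fitted were called, 0 members had an unadjusted p under 0.05, and the lowest adjusted p was 0.100 (Tspan3). By method, the median of all genes for 100 minus 10 nuclei was 1.29 (heated mineral oil), 0.0052 (heated xylene) and -0.14 (room-temperature xylene) on the log2 scale. The 45.8% thus came with a median that differed between methods. The part of that shift in the calls was not tested. No other tool was run on the interaction. Human counts were lower with 100 nuclei too, going from a mean of 26.7% to 10.4% of all counts in heated mineral oil, 15.4% to 9.11% in heated xylene and 15.7% to 8.43% in room-temperature xylene. Cell type markers moved in this contrast as well: 2 of 6 granule neuron markers (Cbln1 and Fat2), 2 of the 4 oligodendrocyte markers tested (Mbp and St18) and 1 of the 4 excitatory neuron markers tested (Nrgn) were called higher with 100 nuclei, and 0 markers of any list lower. Summed levels of the granule neuron list were 284 to 6115 CPM with 10 nuclei and 1035 to 3543 CPM with 100. Those of the oligodendrocyte list were 0 to 13209 CPM (median 711) and 290 to 5141 CPM (median 2058), and those of the excitatory list 95.9 to 1312 CPM and 188 to 962 CPM. Their part in the fall of the members was not tested. Each method and number was 1 library pool, so a pool and its group cannot be told apart.

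**Figure D2:**
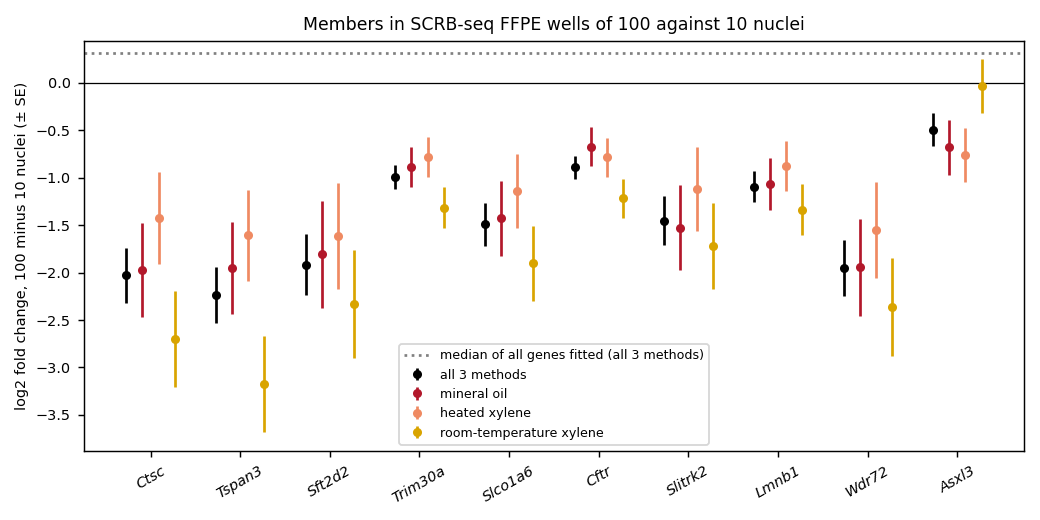
Log2 fold change of 100 minus 10 nuclei for each gene, with its standard error, over all 3 methods and within each method, and a dotted line at the median of all genes fitted (0.31). All 10 genes lie below 0 over all methods, from -0.49 for Asxl3 to -2.24 for Tspan3, and Asxl3 in room-temperature xylene lies at -0.04.

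Between the 3 paraffin removal methods none of the members passed the test over all FFPE wells. Ctsc had means of 58521 CPM ± 49836 in heated mineral oil, 25322 ± 15340 with heated and 29860 ± 29460 with room-temperature xylene (SD, n = 16 wells each). The largest of the 30 differences was that of Ctsc between heated mineral oil and heated xylene (log2 difference 1.16, SE 0.48, edgeR adjusted p = 0.123), followed by Tspan3 (1.11, SE 0.50, adjusted p = 0.165). For this pair edgeR called 0 of 10 members and 8.52% of 1080 genes, while 3 members (Ctsc, Tspan3 and Slco1a6) had an unadjusted p under 0.05. Heated against room-temperature xylene gave 0 of 10 against 1.94% of genes, and heated mineral oil against room-temperature xylene 0 of 10 against 10.3%, with 0 members at an unadjusted p under 0.05 in either. The DESeq2 Wald test called 0 of 10 in each pair. Calls over all genes split 11 higher and 10 lower between the xylene methods with TMM and 4 and 10 with DESeq2 size factors, and 27 and 84 against 13 and 86 for heated mineral oil and room-temperature xylene.

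These wide spreads mixed both nuclei numbers. With the number as a covariate, edgeR called 3 members and 4.81% of all genes higher in heated mineral oil than in room-temperature xylene: Tspan3 (1.18, adjusted p = 0.0141), Cftr (0.45, 0.0140) and Trim30a (0.39, 0.0462). Among wells of 100 nuclei it called Tspan3 (1.71, 0.0137) and Cftr (0.61, 0.0109) in this pair, against 4.10% of genes higher. With the well barcode as a replicate block as well, a fit added after the values were seen, Ctsc (0.89, 0.0226), Slitrk2 (0.53, 0.0192) and Slco1a6 (0.56, 0.0208) were also called, against 7.31% of genes higher. Among wells of 10 nuclei, Ctsc (1.24, edgeR adjusted p = 0.0210) and Tspan3 (1.14, 0.0351) were called higher in heated mineral oil than in heated xylene, against 4.32% of genes. Slco1a6 was called in that pair with the block (0.53, 0.0352), against 3.89% of genes. Cftr was higher in heated than in room-temperature xylene among wells of 100 nuclei (0.58, edgeR adjusted p = 0.0274, against 2.76% of genes) and with the block (0.42, 0.0161, against 4.07%).

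Levels also depended on the well. In an edgeR quasi-likelihood test of the 8 barcodes over the 48 FFPE wells, with a mean for each pool, 9 of the 10 members and 14.0% of the 1979 genes were called (Benjamini-Hochberg adjusted over all genes, comparison added after the values were seen). By summed counts in FFPE wells the members ranked from 1st (Ctsc) to 45th (Wdr72). Most genes fitted had fewer counts, and the part of abundance in this share was not tested. Slitrk2 gave adjusted p = 3.20e-10, Slco1a6 5.05e-07, Sft2d2 1.57e-05 and Wdr72 3.90e-05. Asxl3 gave 0.000203, Ctsc 0.000681, Tspan3 0.00278, Trim30a 0.0150 and Lmnb1 0.0196, and Cftr was not called (0.0585). In wells of 1 nuclei number alone, Trim30a and Lmnb1 were called at neither number, Tspan3 not at 100 nuclei (0.0784) and Asxl3 not at 10 (0.111).

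Different members favoured different wells. Relative to the mean of its pool, Slitrk2 was at 1.72 ± 0.211 in well 4 (agaatt) and 0.292 ± 0.0995 in well 7 (gcgtgg) (mean ± SD, n = 6 pools). It was above the pool mean in well 4 and below it in well 7 in 6 of 6 pools. In the same well 7 Slco1a6 was at 1.49 ± 0.458, above the mean in 6 of 6 pools. Slco1a6 peaked in well 2 (cttctg) at 1.55 ± 0.343 and was lowest in well 8 (cgtcgc) at 0.530 ± 0.131. Well 7 was thus low for Slitrk2 and high for Slco1a6 in the same libraries. Mean mouse counts per barcode ranged from 43689 in well 4 to 78627 in well 2, and the part of depth was not tested.

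Ctsc, Tspan3 and Wdr72 peaked in well 3 (ttcctc) and were lowest in well 6 (cggagg). Ctsc was at 1.81 ± 0.592 in well 3 and 0.481 ± 0.177 in well 6, and below the pool mean in well 6 in 6 of 6 pools. Sft2d2 was highest in well 4 (1.86 ± 0.656) and also lowest in well 6 (0.304 ± 0.104). Cftr had the narrowest range, from 0.861 ± 0.118 in well 1 (atactt) to 1.32 ± 0.202 in well 5 (cgactt). Frozen wells had 2 wells per barcode. There Slitrk2 was again highest in well 4 (2.28) and lowest in well 7 (0.0819, from 2 counts), and Ctsc again highest in well 3 (1.88) and lowest in well 6 (0.208, from 5 counts). Slco1a6 likewise kept its highest and lowest well. The other 7 members did not keep both: Tspan3 was highest in frozen well 8 and Wdr72 in frozen well 2. Over the 8 barcodes the correlation of FFPE with frozen relative levels ran from 0.89 (Sft2d2) to -0.22 (Lmnb1), with 0.30 for Tspan3, 0.12 for Trim30a and 0.10 for Cftr. The frozen wells alone gave 0 calls among 902 genes in edgeR, with 15 genes at an unadjusted p under 0.05, among them Slitrk2 (0.00270) and Ctsc (0.0366), and no other tool was run. A barcode and the position of its well cannot be told apart.

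**Figure D3:**
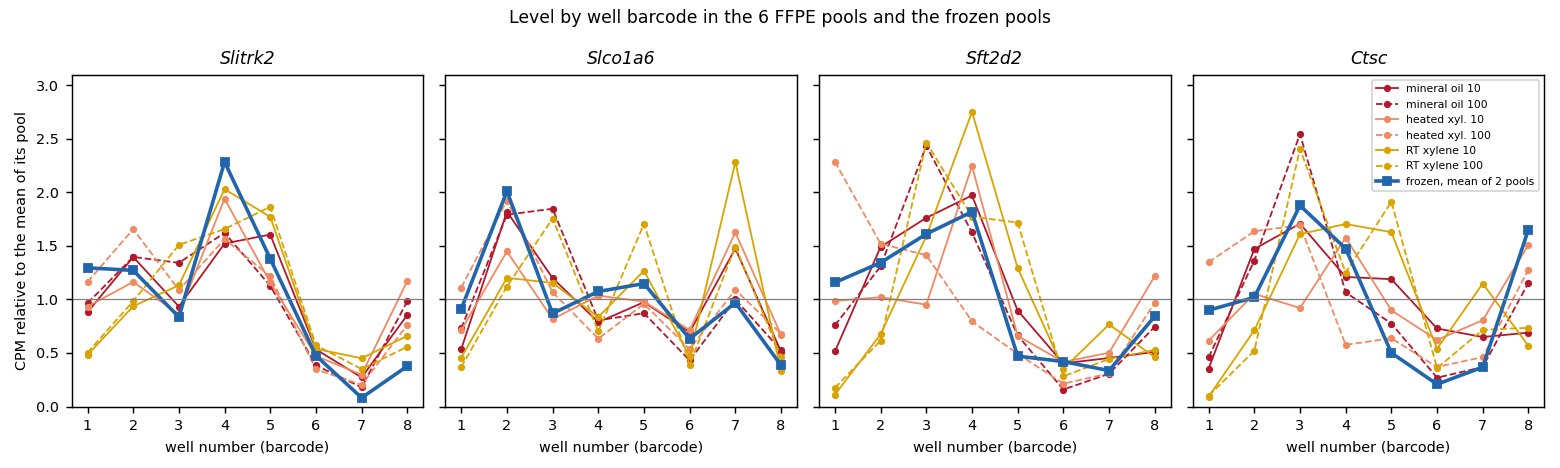
CPM relative to the mean of its pool for Slitrk2, Slco1a6, Sft2d2 and Ctsc by well number, with 1 line for each of the 6 FFPE pools and a thick line with squares for the mean of the 2 frozen pools. Slitrk2 is lowest in well 7 (mean 0.292) and highest in well 4 (1.72), while Slco1a6 is high in well 7 (1.49).

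Most of the genes moved together from well to well, to different degrees. After the mean of each pool was removed, Ctsc and Tspan3 correlated at r = 0.97 over the 48 FFPE wells on the log2(CPM + 10) scale. Sft2d2 and Wdr72 correlated at 0.96, and all pairs among these 4 genes lay between 0.89 and 0.97. Outside these 4, Sft2d2 and Slitrk2 correlated at 0.79, Ctsc and Lmnb1 at 0.77, Lmnb1 and Asxl3 at 0.75 and Trim30a and Lmnb1 at 0.65. Trim30a and Cftr correlated at 0.74 with each other, while Cftr stood at 0.15 with Ctsc and -0.09 with Sft2d2. These are descriptions over wells that share pools, barcodes and the total that CPM divides by.

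Within a well the ratio of Tspan3 to Ctsc counts kept to a narrow range, from 0.439 to 1.19 with a median of 0.852, while each gene's CPM ranged over 157-fold (Ctsc) and 244-fold (Tspan3). In frozen wells the ratio of the summed counts was 1.12 (185 to 165), and in SMART-Seq2 FFPE wells 6.18 (606 to 98). The ratio of Cftr to Trim30a ranged from 0.400 to 0.783 (median 0.541) in FFPE wells and had a median of 0.606 in frozen wells. The ratio of Cftr to Ctsc was not kept: it ranged from 0.0294 to 1.69 among FFPE wells.

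**Figure D4:**
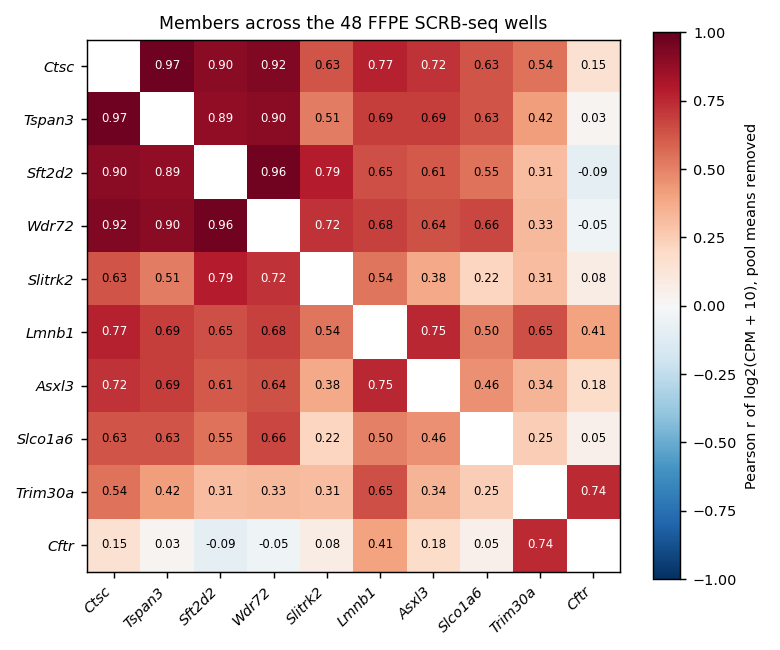
Pearson correlation of log2(CPM + 10) between the 10 genes over the 48 FFPE SCRB-seq wells after the mean of each pool was removed, with r printed in each cell. Ctsc, Tspan3, Sft2d2 and Wdr72 form a block of 0.89 to 0.97, while Cftr lies between -0.09 and 0.15 with them and at 0.74 with Trim30a.

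Among 2574 other genes with a mean of at least 5 counts per FFPE well, 5 followed the mean of the members most closely. Dlgap1, a postsynaptic scaffold gene, had r = 0.917, at 11807 CPM ± 5491 in FFPE and 2999 ± 443 in frozen wells. Phc3, a Polycomb gene, had 0.893 (838 against 119 CPM) and Laptm4a, a lysosomal membrane gene, 0.889 (1972 against 158 CPM). Gm12714 (1207 against 46.6 CPM) and Mme, which encodes the peptidase neprilysin (669 against 17.3 CPM), both had 0.873. The median over all 2574 genes was -0.0981 and the 90th percentile 0.195. In SMART-Seq2 Dlgap1 averaged 2572 CPM in FFPE and 2099 CPM in frozen wells, Phc3 159 and 63.6 CPM and Laptm4a 54.4 and 33.7 CPM. Gm12714 averaged 0.150 and 0 CPM there, and Mme 1.95 and 13.4 CPM.

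In SMART-Seq2 bulk wells the genes were minor. They took 0.00254% to 0.0396% of counts in FFPE wells (mean 0.0212% ± 0.0113, n = 9) and 0.0130% to 0.0178% in frozen wells (mean 0.0152% ± 0.00239, n = 3), so both groups overlapped. The wells held 270363 to 942966 counts each, more than any SCRB-seq well. Tspan3, the most abundant member there, had 93.6, 103 and 71.1 CPM in heated xylene wells of 100, 50 and 10 nuclei. It had 165, 108 and 209 CPM in room-temperature xylene, 108, 149 and 9.75 CPM in heated mineral oil, and 66.4, 107 and 51.6 CPM in frozen wells. The FFPE values lay on both sides of the frozen ones.

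Of the 10 members, 3 passed the filter on low counts. In edgeR's quasi-likelihood test over 9092 genes Tspan3 differed by 0.29 (log2, SE 0.76, adjusted p = 0.924), Lmnb1 by -1.49 (SE 1.28, adjusted p = 0.683) and Asxl3 by -1.31 (SE 1.18, adjusted p = 0.708). That is 0 of 3 called, with 0 at an unadjusted p under 0.05, where edgeR called 4.09% of all genes. The DESeq2 Wald test also called 0 of 3 and 7.05% of all genes. Taken as 2 standard errors on each side, the interval was -1.22 to 1.80 for Tspan3, -4.05 to 1.07 for Lmnb1 and -3.67 to 1.06 for Asxl3. For Lmnb1 the difference was -2.98 with the nuclei number as a replicate block (edgeR adjusted p = 0.327) and -2.16 (0.550) when the well of 50 nuclei from room-temperature xylene was left out. The granule neuron markers that were higher in SCRB-seq FFPE wells were higher here too, 6 of 6, with summed levels of 1296 to 3880 CPM against 44.4 to 143 CPM in frozen wells.

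The members below the filter had few counts, for Ctsc and Cftr mostly in 1 well. Ctsc had 0 counts in all 3 frozen wells and 98 counts in FFPE wells, 87 of them in the room-temperature xylene well of 10 nuclei (177 CPM) and 0 in 5 of the 9 FFPE wells. Cftr had 48 counts in FFPE wells, 41 of them in the heated mineral oil well of 50 nuclei, and 1 in frozen wells. Lmnb1, which passed the filter, had 54 of its 102 FFPE counts in the room-temperature xylene well of 50 nuclei (95.3 CPM), and 27.9 to 33.7 CPM in frozen wells. Slco1a6 had 19 counts over 7 of 9 FFPE wells and 0 in frozen wells. Sft2d2 had 32 against 1, Trim30a 37 against 2, Slitrk2 64 against 12 and Wdr72 3 against 2 counts. A fit without the filter covered all 10 members and called none, with an adjusted p of 0.374 for Ctsc. Several intervals were wide: -3.05 to 5.72 for Trim30a, -2.59 to 6.91 for Sft2d2, -3.52 to 3.90 for Slitrk2 and -23.6 to 26.5 for Cftr (2 standard errors on each side). Each of these held the gene's log2 difference between FFPE and frozen SCRB-seq wells (2.60, 6.32, 3.57 and 2.39). Ctsc differed by 4.90 (-0.15 to 9.95) and Slco1a6 by 4.15 (-1.10 to 9.41) in the SMART-Seq2 fit without the filter. These values depend on the prior count because both were at 0 in frozen wells. Their intervals held the SCRB-seq differences too, 7.25 for Ctsc and 3.85 for Slco1a6. The interval of Wdr72 was -3.87 to 1.38, from 3 counts in FFPE and 2 in frozen wells, and left out its SCRB-seq difference of 5.86. The intervals of Tspan3, Lmnb1 and Asxl3 in the same fit also left out theirs (7.02, 2.79 and 1.98). The high levels of SCRB-seq FFPE wells, 37901 CPM on average for Ctsc and 4078 CPM for Cftr, were not found in any SMART-Seq2 well. Frozen wells differed between chemistries as well: Trim30a averaged 1273 CPM in SCRB-seq and 1.43 CPM in SMART-Seq2 frozen wells, and Cftr 767 and 0.714 CPM. These levels come from separate tables and are given side by side, without a test.

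Single nuclei in plates, also read with SMART-Seq2, gave low levels too, with no test because each arm is 1 plate set. The members summed to 0.0172% of counts in batch 1 (98 FFPE nuclei), 0.0187% in batch 2 (134), 0.0242% in the FFPE nuclei of the whole-series table (143, of which 134 are those of batch 2) and 0.0187% in its 137 frozen nuclei. Tspan3 had pooled levels of 30.1, 156, 129 and 112 CPM in that order. A Tspan3 count was held by 32.9% of the whole-series FFPE nuclei and 59.9% of the frozen nuclei, at median depths of 47887 and 255329 counts per nucleus. Asxl3 had 41.3, 13.5, 29.2 and 32.8 CPM. For both genes the frozen level lay within the range of the FFPE arms.

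Other members were carried by few nuclei. Ctsc had 0 counts in batch 1, 3 in batch 2, 94 in the whole-series FFPE nuclei, 87 of them in 1 nucleus, and 4 in frozen nuclei. Cftr had 49.0 CPM in batch 1, where 557 of 852 counts lay in 1 nucleus, 0.297 CPM in batch 2, 9.61 CPM in whole-series FFPE nuclei (223 of 227 counts in 1 nucleus) and 1.40 CPM in frozen nuclei. Wdr72 had 0.576, 3.67, 30.2 (673 of 713 counts in 1 nucleus) and 0.503 CPM. The 9 whole-series FFPE nuclei outside batch 2 held 91 of the 94 Ctsc counts, 224 of the 227 Cftr counts and 676 of the 713 Wdr72 counts, and the levels without them are those of batch 2. These 9 also held much of the depth. The whole-series FFPE arm had 23616215 counts and up to 4973791 in 1 nucleus. Batch 2 had 10094688 counts and at most 431562 in 1 nucleus.

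The remaining members also changed order between arms. Sft2d2 had 9.04, 0.198, 6.78 and 20.2 CPM, and was highest in frozen nuclei. Slitrk2 had 19.5, 7.63, 5.38 and 17.1 CPM. Trim30a had 1.84, 0.991, 13.7 and 0.614 CPM, Slco1a6 5.35, 3.67, 10.5 and 0.440 CPM, and Lmnb1 14.8, 0.495, 3.09 and 1.26 CPM. For these 3 genes the frozen arm was below batch 1, and for Lmnb1 batch 2 was lower still. Pooled levels weight nuclei by their depth. Averaged over nuclei instead, the whole-series FFPE nuclei were below the frozen nuclei for Trim30a (1.99 against 3.20 CPM), Lmnb1 (0.758 against 3.52 CPM) and Cftr (0.795 against 2.46 CPM), the opposite order to the pooled levels. For all 10 members the FFPE value moved beyond its counting interval between these 2 ways of averaging.

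In the droplet library of 7031 FFPE nuclei, which hold 235 to 998 UMIs (unique molecules) each, the members made up 857 of 2605198 UMIs, or 0.0329%. Tspan3 led with 456 UMIs, or 175 CPM (exact Poisson 95% interval 159 to 192, counting error only), and 6.27% of nuclei held one (4.10% when each nucleus was thinned to 235 UMIs). No background share from free RNA was estimated for any member. Over the 12 classes the level of Tspan3 ran from 101 CPM in fibroblasts (2 UMIs) to 247 CPM in endothelial nuclei (14 UMIs), with 186 CPM in ExNeuron1, the largest class (154 UMIs). Asxl3 had 140 UMIs (53.7 CPM) and Trim30a 94 (36.1 CPM). Slitrk2 had 48, Sft2d2 44, Lmnb1 32 and Wdr72 26 UMIs. All of these stood far below their SCRB-seq FFPE levels.

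Ctsc had 9 UMIs in the droplet library (3.45 CPM), 2 of them in the 93 nuclei that the authors call microglia. That is 2.15% of microglia (exact binomial 95% interval 0.262% to 7.55%) at a median of 285 UMIs, against 0.0943% of ExNeuron1 nuclei at a median of 331. After thinning to 235 UMIs the shares were 1.51% and 0.0436%. Of 47 fibroblast nuclei 1 (2.13%) and of 174 endothelial nuclei 1 (0.575%) also held a Ctsc UMI, so with so few UMIs no order of the classes can be read. Cftr had 7 UMIs, 4 of them in ExNeuron4, and Slco1a6 had 1. At this depth no level by class could be set for Cftr and Slco1a6. With 1 library no test was possible.

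**Figure D5:**
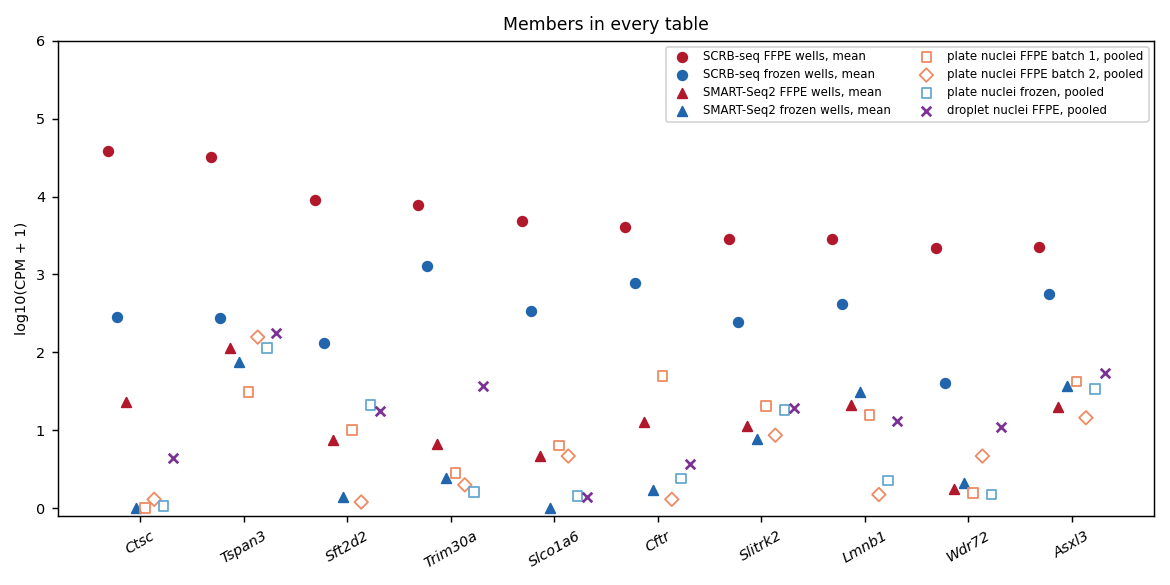
Level of each gene in the tables analysed, without the whole-series FFPE nuclei, as log10(CPM + 1), with filled circles for SCRB-seq and filled triangles for SMART-Seq2 well means (red FFPE, blue frozen), open symbols for pooled plate nuclei (orange FFPE, light blue frozen) and purple crosses for pooled droplet nuclei. SCRB-seq FFPE wells are the highest point for all 10 genes, for Ctsc at 37901 CPM against 21.9 CPM in SMART-Seq2 FFPE wells and 3.45 CPM in droplet nuclei.

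Family members of the 10 genes were far less abundant in SCRB-seq FFPE wells. Of 76 relatives, 73 were in the table, and only 7 had counts enough for the FFPE against frozen fit, where 30.2% of genes were called higher and 27.7% lower. Of those 7, 3 were higher in FFPE wells: the cathepsin Ctsb (299 against 70.1 CPM) and the tetraspanins Tspan9 (160 against 34.8 CPM) and Cd81 (383 against 112 CPM). The Wdr72 relative Dmxl1 was lower (143 against 970 CPM). Sft2d1 had 41.8 against 43.4 CPM, Lmnb2 22.0 against 21.5, Trim30d 17.2 against 1.49, Slco1a4 15.6 against 44.3, Slitrk4 45.7 against 8.17, Wdr7 199 against 150 and Asxl1 49.0 against 81.3 CPM. These are examples, 1 from a family. Other relatives below the filter were several-fold higher in FFPE wells, with no test: Ctss 94.2 against 9.62 CPM, Slco2a1 76.2 against 8.34 CPM, Tspan12 128 against 23.6 CPM and Tspan2 77.8 against 9.46 CPM. None of the relatives named reached the FFPE level of its member.

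In the other contrasts the relatives called are given beside the share of all genes called. Of 12 tested between 100 and 10 nuclei, where 33.5% of all genes were called, Tspan12 fell by 1.52 with 100 nuclei (log2, edgeR adjusted p = 0.00239) and Dmxl1 rose by 0.91 (adjusted p = 0.0248). Tspan12 was also the 1 relative of 12 called between barcodes, against 14.0% of all genes. In SMART-Seq2, where 4.09% of all genes were called, 47 were tested and only Abcc5, an ABC transporter related to Cftr, was called, at 129 CPM in FFPE and 530 CPM in frozen wells (log2 difference -2.35, SE 0.55, edgeR adjusted p = 0.0125). The human genes of the same names held few counts in the SCRB-seq table: 36 for TSPAN3, all in heated mineral oil and 26 of them in 1 well, 5 for CFTR, 4 for LMNB1, 2 for CTSC and 1 each for SFT2D2, SLITRK2 and WDR72.

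Because the primer of SCRB-seq binds runs of A, the annotated transcripts of the members were searched for such runs on the transcript strand. A run of at least 10 A was found in 3 of the 10 members (Ctsc, Trim30a and Asxl3), against 46.8% of 1447 fitted genes with a transcript, whose transcripts differ in length. Tspan3 had a longest run of 6, Cftr 6, Slco1a6 and Lmnb1 5, Sft2d2 and Slitrk2 8 and Wdr72 9, where the median gene had 9. Asxl3 had the longest run of the members, 15 A in a transcript of 3916 bases, and its sequence is not shown. The runs of Ctsc (10 A) and Trim30a (14 A) are shown in capitals with 8 bases on each side. The stretches shown, flanks included, are bases 2003 to 2028 of a Ctsc transcript of 2493 bases and 1975 to 2004 of a Trim30a transcript of 3771 bases. Only annotated transcripts were searched, and intron sequence outside them was not.
Ctsc: ttatggagAAAAAAAAAAtcaatgaa
Trim30a: ccatattcAAAAAAAAAAAAAAtagttgtt
Priming at these runs was not tested.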

How the data were processed

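Counts per gene and well or nucleus were deposited by the authors as raw whole numbers, and the droplet table as UMI counts. For 131 of 7031 droplet nuclei the deposited counts sum to 1 below the authors' total, and the sums were used. Builds hg19 and mm10 are named in the submitters' processing notes. An aligner, a counting program and any UMI collapsing of SCRB-seq reads are not given in the sources used. SCRB-seq fits used mouse genes, without the table's 10653 human genes. Plate batch 3 was not analysed here. The authors' droplet nuclei were used as deposited, with no doublet caller run here.

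The members and lists were chosen with earlier results of these data known. Named beside the members were fixed families, the 5 genes most alike across FFPE wells and the genes next to them by ratio. Fits used edgeR 4.0.16 in R 4.3.3 (TMM, filterByExpr, library sizes over the genes kept, quasi-likelihood test, Benjamini-Hochberg adjusted p under 0.05 over all genes), with DESeq2 1.42.0 as an alternative, and were tested on simulated data. Library sizes over all genes, the barcode and interaction tests, fits by method, the barcode block and leaving out 1 well were added after values had been seen. Groups came from the authors' annotation. Correlations used log2(CPM + 10), and the ratio ranking a pseudocount of 1 CPM. Other steps used Python 3.11, numpy 2.4.6, pandas 2.3.3, scipy 1.17.1 and matplotlib 3.10.9. CPM is a share, so where the members take many counts the CPM of other genes is lower.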

Additional observations from a re-analysis of the deposited data

Results flagged for a closer look

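In SCRB-seq, 8 of 88 groups of 8 wells held a sample whose gap to its nearest neighbour was large for the range of its group. The cut-off gives about 1 in 20 for independent, normally distributed values. CPM need not be so distributed and the groups share wells, so that rate is not the chance rate here. All 8 samples were the highest of their group. Among FFPE wells these were Asxl3 at 6031 CPM in room-temperature xylene with 100 nuclei, Cftr at 6391 CPM in room-temperature xylene with 10 nuclei, Slco1a6 at 4701 CPM in heated xylene with 100 nuclei, Sft2d2 at 21235 CPM in heated xylene with 10 nuclei and Tspan3 at 48774 CPM in heated mineral oil with 100 nuclei. In frozen wells of 100 nuclei they were Slco1a6 at 382 CPM, Cftr at 969 CPM and Slitrk2 at 498 CPM. The well with the high Asxl3 value is the one left out in the report.

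In SMART-Seq2, 5 of the 10 members had 1 FFPE well far above the other FFPE wells: Ctsc at 177 CPM, Trim30a at 28.1 CPM, Cftr at 97.0 CPM, Lmnb1 at 95.3 CPM and Wdr72 at 4.73 CPM, with the next well at 8.15, 8.08, 8.64, 30.8 and 2.03 CPM. For Wdr72 these are 2 counts against 1.

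The human genes of the same names, which were in no fit, held 36 counts for TSPAN3 and 4 for LMNB1 in FFPE wells and 0 in frozen wells.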

How the results depend on the processing

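For 100 against 10 nuclei, 112 of 120 values of members under the alternatives kept both direction and call, 8 lost the call and none changed sign. Counts of genes called moved more. In SMART-Seq2, 372 became 641 with the DESeq2 Wald test and 162 to 469 when 1 well was left out (174, 187 and 162 without the frozen wells of 100, 50 and 10 nuclei). Between 100 and 10 nuclei, 663 became 1082 (Wald), 5035 (no filter), 359 (xylene only), 1028 (mineral oil), 405 (heated xylene) and 274 (room-temperature xylene). Mineral oil against heated xylene went from 92 to 3415 without the filter, 143 with the number as covariate and 256 in wells of 100 nuclei. Heated against room-temperature xylene went from 21 to 36 (Wald), 2899, 62 and 117, and mineral oil against room-temperature xylene from 111 to 2925, 201 and 178. Barcode calls went from 278 to 1265 (no filter), 65 (100 nuclei) and 135 (10 nuclei). The cause was not tested. With a replicate block by barcode and the nuclei number the pairs gave 170, 71 and 244 calls. With the block, 100 against 10 nuclei gave 763, and SMART-Seq2 with the nuclei number as block 429.

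Differences between methods that changed sign, all uncalled, were as follows (log2). Mineral oil against heated xylene: without the filter Trim30a -0.11, Cftr -0.24 and Asxl3 -0.18, and Cftr -0.037 with library sizes over all genes and -0.018 with scaling without the members. Heated against room-temperature xylene, wells of 100 nuclei: Lmnb1 0.064, Ctsc 0.57, Tspan3 1.01, Slitrk2 0.37, Sft2d2 0.10, Wdr72 0.050 and Slco1a6 0.19. In that pair the block gave Ctsc 0.23, Tspan3 0.47, Slitrk2 0.090 and Slco1a6 0.033, the covariate Tspan3 0.24 and Slitrk2 0.10, no filter Slitrk2 0.011 and wells of 10 nuclei Asxl3 0.40. Mineral oil against room-temperature xylene: without the filter Lmnb1 -0.18 and Asxl3 -0.23, and Asxl3 -0.077 (DESeq2 size factors), -0.086 (Wald), -0.034 (library sizes over all genes), -0.41 (100 nuclei) and -0.0081 (scaling without the members).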
